A study of Mus musculus with 10 samples.

Results

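Wide distal sites were defined as accessible sites of at least 1500 bp on chromosomes 1 to 19 that did not reach within 1 kb of any annotated transcript start. The members were chosen by width and position alone, from the pooled list of all sites that the study identified by ATAC-seq. There were 3621 such sites among 153924 sites in all, and among 124339 distal sites on these chromosomes (2.91%, 95% Wilson interval 2.82 to 3.01). The remaining 120718 distal sites, all narrower than 1500 bp, served for comparison. Sites of 1500 bp or more numbered 9904 on chromosomes 1 to 19, so that 36.6% of these were distal and the others came within 1 kb of a transcript start.

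The cells were NG3 cells, a single clone of immortalized mouse embryo fibroblasts (iMEF) that lacked exon 4 of the endogenous Ash2l gene in every group and lived on a lentivirally delivered fusion of FKBP12F36V, HA tags and human ASH2L. ASH2L belongs to the core of the KMT2 complexes, which methylate histone H3 at lysine 4, and dTAG-13 is a compound that recruits the fusion protein to the E3 ligase subunit Cereblon for degradation. Libraries were made from cells without dTAG treatment (given ethanol, per the methods) and from cells that had received dTAG-13 either 30 min before harvest or 4 h, 8 h or 24 h before it, with 2 replicates in each of the 5 groups. The list pools all 10 libraries and gives only the chromosome, start and end of each site, so neither a difference between the groups nor a spread between replicates was analysed here, and the depth is unknown. The fibroblast identity of the cells was not checked against marker genes, since no expression values were used.

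Distal accessible sites include enhancers, where transcription factors displace nucleosomes and recruit co-activators that act on promoters over a distance. AP-1, a dimer of Fos and Jun proteins, TEAD factors, the end points of the Hippo pathway, and RUNX factors are known to occupy many enhancers of fibroblasts. CTCF is a zinc finger protein that binds a long motif and, together with cohesin, sets the anchors of chromatin loops. CpG islands are unmethylated stretches rich in CpG that mark many promoters and also occur away from annotated genes.

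Stretches of 200 bp from the widest members and from a member with the most AP-1 matches are shown as examples of where motif matches lie in a wide site. They were picked for width and matches and are not typical of wide sites. In the first set, the stretch with the highest number of AP-1, TEAD and RUNX matches is given for 3 wide sites (mm10, forward strand), with the matches in capitals (AP-1 is TGAGTCA or TGACTCA, TEAD is CATTCC and RUNX is TGTGGTT, on either strand). The first lies in an intron of Kdm6b, a histone H3 lysine 27 demethylase, at chr11:69410606-69410805. The second lies at chr17:34107125-34107324, nearest to Brd2, which encodes a reader of acetylated histones. The third lies at chr3:107823356-107823555, nearest to Eps8l3, in an intron of the long noncoding RNA gene Gm36211, and is followed by the 200 bp at the middle of the same site (chr3:107822847-107823046).
Kdm6b: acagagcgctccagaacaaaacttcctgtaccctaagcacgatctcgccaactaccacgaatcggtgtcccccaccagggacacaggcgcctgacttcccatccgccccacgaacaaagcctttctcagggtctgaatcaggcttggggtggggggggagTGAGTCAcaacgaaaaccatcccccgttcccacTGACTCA
Brd2: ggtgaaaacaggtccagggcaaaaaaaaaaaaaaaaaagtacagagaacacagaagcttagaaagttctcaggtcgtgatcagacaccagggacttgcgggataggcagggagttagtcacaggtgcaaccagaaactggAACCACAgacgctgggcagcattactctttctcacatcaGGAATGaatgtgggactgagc
Eps8l3: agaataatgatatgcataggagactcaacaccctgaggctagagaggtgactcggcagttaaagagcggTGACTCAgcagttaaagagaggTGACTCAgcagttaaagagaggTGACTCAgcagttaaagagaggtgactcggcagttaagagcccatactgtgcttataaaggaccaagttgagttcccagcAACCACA
Eps8l3, middle: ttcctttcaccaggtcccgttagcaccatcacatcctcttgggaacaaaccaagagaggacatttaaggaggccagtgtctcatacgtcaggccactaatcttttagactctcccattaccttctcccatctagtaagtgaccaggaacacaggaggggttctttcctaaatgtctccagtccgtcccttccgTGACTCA
In the Kdm6b site the pair of AP-1 matches lay in a stretch centred 487 bp from the middle of the site. In the Eps8l3 site, 3 of its 5 AP-1 matches followed each other at steps of 22 bp, at 481, 503 and 525 bp from the middle, within a repeated unit that is visible in the sequence. The middle 200 bp of this site held 1 match, at its right end.

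A second set shows members that contain repeated units, in which the same letters return at a step. For the 2 widest members, nearest to Vmn1r2 (chr4:3080443-3080642) and Sfi1 (chr11:3100947-3101146), no AP-1, TEAD or RUNX match was found in the whole site and the first 200 bp are given. For the sixth widest, nearest to Ccr1 (chr9:123923339-123923538), the capitals mark TEAD matches.
Vmn1r2: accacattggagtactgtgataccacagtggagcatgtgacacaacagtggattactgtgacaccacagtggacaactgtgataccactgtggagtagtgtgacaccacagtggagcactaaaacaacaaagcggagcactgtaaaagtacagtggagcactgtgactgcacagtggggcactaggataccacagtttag
Sfi1: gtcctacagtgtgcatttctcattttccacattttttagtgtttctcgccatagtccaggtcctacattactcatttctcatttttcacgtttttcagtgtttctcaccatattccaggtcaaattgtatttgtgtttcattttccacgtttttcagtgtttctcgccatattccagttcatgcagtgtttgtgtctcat
Ccr1: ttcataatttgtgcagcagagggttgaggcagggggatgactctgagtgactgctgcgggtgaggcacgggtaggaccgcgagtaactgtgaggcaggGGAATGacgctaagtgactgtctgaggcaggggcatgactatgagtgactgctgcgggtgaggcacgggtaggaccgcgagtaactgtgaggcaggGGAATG
In the Vmn1r2 site 66.3% of bases equalled the base 21 bp further on. The corresponding value was 52.2% at a step of 59 bp in the Sfi1 site and 41.6% at a step of 31 bp in the Ccr1 site. Across all members the best value over steps of 10 to 400 bp had a median of 29.3%, and 10 members (0.276%) reached 50%.

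The widths of wide distal sites ranged from 1500 to 4004 bp, with a median of 1693 bp and quartiles of 1579 and 1884 bp. The narrower distal sites had a median width of 552 bp. Most members lay close to the threshold: 84% were below 2000 bp, whereas 579 reached 2000 bp, 79 reached 2500 bp and 13 reached 3000 bp. There was no step in the number of sites at the threshold, with 15 distal sites of 1499 bp and 13 of 1500 bp. Members just inside it included an intronic site nearest to Sgk3 (1500 bp), and sites just outside it included one nearest to Nck2 (1499 bp), 48226 bp from its start. Together the wide sites covered 6.42 Mb, which was 8.02% of the distal accessible sequence.

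**Figure D1:**
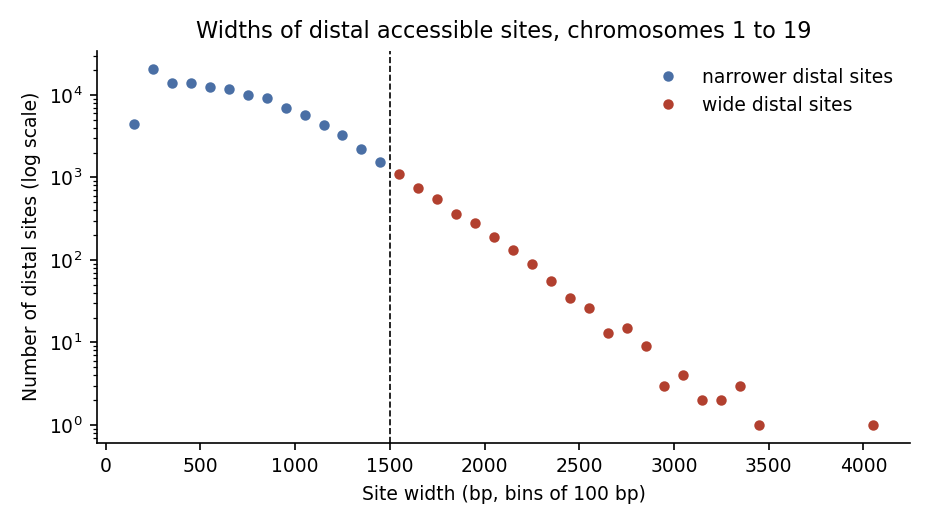
Number of distal sites (log scale) against site width in bins of 100 bp, for wide (red) and narrower (blue) distal sites of chromosomes 1 to 19. The counts fall smoothly through the dashed line at 1500 bp, and only 13 sites reach 3000 bp.

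Wide sites occurred on every autosome. Their share of the distal sites of a chromosome was 2.90% ± 0.307 (SD, n = 19 chromosomes). The share was highest on chromosome 13 (3.52%, 3.09 to 4.01) and lowest on chromosome 19 (2.06%, 1.64 to 2.58). These were picked as the extremes of 19 chromosomes, and no test was made between chromosomes. Per Mb of chromosome the number ranged from 1.13 on chromosome 12 to 2.40 on chromosome 15, which also carried many distal sites of any width (8776).

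Among the 10 widest members were sites with very different sequence content. The widest of all (4004 bp) lay 84875 bp from the start of Vmn1r2, a vomeronasal receptor gene, and 53.9% of it was soft-masked as repeats in the reference genome. The next widest (3412 bp, nearest to Sfi1, which encodes a centrosomal protein) was 57.4% soft-masked. The site in the Kdm6b intron (3362 bp) was instead 6.34% soft-masked, had a GC content of 60.5%, lay near a CpG island and held 4 AP-1 matches. GC-rich members with a CpG island also lay nearest to Ppara, the lipid-sensing nuclear receptor (3135 bp, GC content 65.6%, in the noncoding gene Lncppara), and to Ccr1, a chemokine receptor gene (3272 bp, 59.0%).

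The other widest members had GC contents between 40.1% and 49.1% and no CpG island. The member nearest to Fstl1, which encodes a secreted follistatin-like glycoprotein, was 3266 bp wide, lay in an intron of the gene and held 1 AP-1, 2 TEAD and 2 RUNX matches. The members nearest to Adamts1, a secreted metalloprotease gene, and to Rnd3 were 3167 and 3089 bp wide and held 3 and 2 RUNX matches, respectively. A site of 3366 bp nearest to the olfactory receptor gene Olfr1423 held 1 TEAD match. Of these 10 members, those nearest to Olfr1423, Kdm6b and Ccr1 had a transcript start of the RefSeq annotation within 1 kb, although none of the GENCODE transcripts used for the definition started there.

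To compare the sequence content, the middle 200 bp of each site was searched for 14 motifs on both strands, and the difference between wide and narrower sites was tested with an exact sign test over the 19 chromosomes. Matches to AP-1 were less frequent in the middle of wide sites, as were matches to CTCF and RUNX, and less firmly to TEAD and the CArG box bound by serum response factor. These 5 of 14 motifs (35.7%) passed with lower shares, and 0 of 14 passed with a higher share (at an unadjusted p under 0.05, 0 motifs were higher on most chromosomes). The search describes letters, and a match does not show that a factor was bound.

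AP-1 matches were found in the middle of 8.62% of wide sites (312 of 3621) and of 16.5% of narrower sites (19896 of 120718). Over chromosomes the wide share ranged from 5.23% to 13.7% with a median of 8.13%, and the narrower share from 14.3% to 18.2% with a median of 16.9%, so the ranges did not overlap. The difference was -7.86 percentage points (95% Newcombe interval -8.76 to -6.88) and had the same sign on 19 of 19 chromosomes (exact sign test, adjusted p = 2.67e-05). With wide sites taken from 1200 bp upward it was -4.08 and still passed.

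CTCF matches showed the largest relative difference among the motifs that passed, with 0.221% of wide sites (8 of 3621) against 3.12% of narrower sites (difference -2.90 percentage points, -3.05 to -2.67). No chromosome had a wide share above 1.12% or a narrower share below 2.09% (lower on 19 of 19, exact sign test, adjusted p = 2.67e-05). RUNX matches lay in 5.99% of wide and 8.91% of narrower sites (difference -2.92, -3.67 to -2.09; lower on 17 of 19, exact sign test, adjusted p = 0.00170). From 1200 bp upward the RUNX difference was -1.52 and still passed. On chromosome 17 the wide share of RUNX reached 13%, above every narrower share.

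TEAD matches were present in 15.1% of wide and 17.6% of narrower sites (difference -2.43, -3.58 to -1.21; lower on 15 of 19, exact sign test, adjusted p = 0.0336). This call was lost with a middle of 500 bp (difference -0.443) and at a width of 2000 bp or more (-2.14) or 1200 bp or more (-0.920). A middle of 500 bp reaches outside sites narrower than 500 bp but never outside a wide site, so that setting does not compare like with like. The CArG box was present in 1.08% and 1.51% (adjusted p = 0.0336 in the exact sign test) and lost its call in 10 of 12 alternatives and changed sign in the other 2. GATA sites (AGATAA) were found in 10.5% of wide and 9.42% of narrower sites (difference 1.05, 0.0774 to 2.10), higher on 14 of 19 chromosomes, which did not pass (exact sign test, adjusted p = 0.0989) but did against narrower sites of at least 600 bp (difference 1.34, adjusted p = 0.0103). In 200 bp stretches 1 kb outside the edges GATA was more frequent still, at 11.6% beside wide and 12.3% beside narrower sites. Over whole sites its density was 0.569 matches per kb in wide and 0.570 in narrower sites, which did not pass. The E-box CAGCTG was found in 11.8% and 12.1% (difference -0.339, -1.36 to 0.767).

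Among the motifs that did not pass, FOX (TGTTTAC) was found in 3.37% of wide and 2.91% of narrower sites. The remaining 6 were too rare for this test, with under 1 wide site per chromosome when the narrower share was taken as a guide. They were CRE (TGACGTCA), ETS (CCGGAAGT), C/EBP (TTGCGCAA), NFI (TTGGC and GCCAA with 5 bases between), EGR (GCGGGGGCG or GCGTGGGCG) and NRF1. Of these, EGR was found in 13 wide sites (0.359%) and 0.106% of narrower sites. It passed with a higher share in wide sites when these were taken from 1200 bp upward (difference 0.205, exact sign test, adjusted p = 0.0155). The sign test is skewed for motifs this rare, so no conclusion is drawn from this call. Without sites near a CpG island the EGR difference was 0.0434 at 1500 bp or more and was not called.

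**Figure D2:**
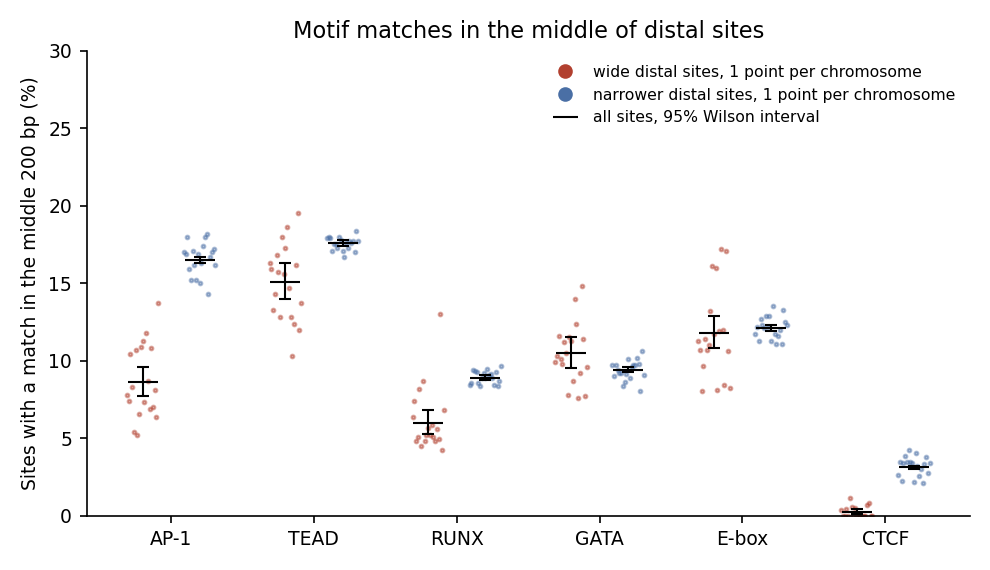
Share of distal sites with a motif match in the middle 200 bp (percent), for wide (red) and narrower (blue) sites, with 1 point per chromosome (n = 19) and black bars for all sites with their 95% Wilson interval. For AP-1 the wide points end at 13.7%, below the lowest narrower point of 14.3%, and for CTCF at 1.12%, below 2.09%.

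The same search was made in the surroundings of the sites. In the 200 bp that begin 1 kb outside each edge, AP-1 matches were found beside wide sites in 3.60% and beside narrower sites in 3.38% of stretches, and none of the 14 motifs passed there. The AP-1 share in the middle of wide sites (8.62%) therefore lay between that of their own flanks and that of the middle of narrower sites.

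Within wide sites, AP-1 matches were spread away from the middle. Their density was 0.478 matches per kb in the first 100 bp from the middle, reached 0.608 between 400 and 500 bp and was 0.184 between 1000 and 1100 bp, outside most of the sites. In distal sites of 600 to 999 bp the density was instead highest in the first 100 bp (1.07 per kb) and reached 0.227 between 300 and 400 bp. Seen from the nearer edge, the density in wide sites was 0.254 per kb in the first 50 bp and highest between 450 and 500 bp inside the site (0.713). Sites of 1000 to 1499 bp had their maximum in the same stretch (0.965), which lies closer to the middle in sites of this width. Seen from the middle, their density was highest in the first 100 bp (0.981), unlike that of wide sites.

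CTCF matches in wide sites were also spread away from the middle, at a lower density and with a maximum nearer to the edge than that of AP-1. From the middle, the maximum lay between 500 and 600 bp (0.0539 per kb), whereas in sites of 600 to 999 bp it lay in the first 100 bp (0.262). From the edge, the maximum lay between 200 and 250 bp inside wide sites (0.0773) and between 250 and 300 bp inside sites of 600 to 999 bp (0.236). The middle of a site of 1500 bp or more need not be the point of strongest signal, which the list does not give. These profiles are descriptions and carry no test.

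**Figure D3:**
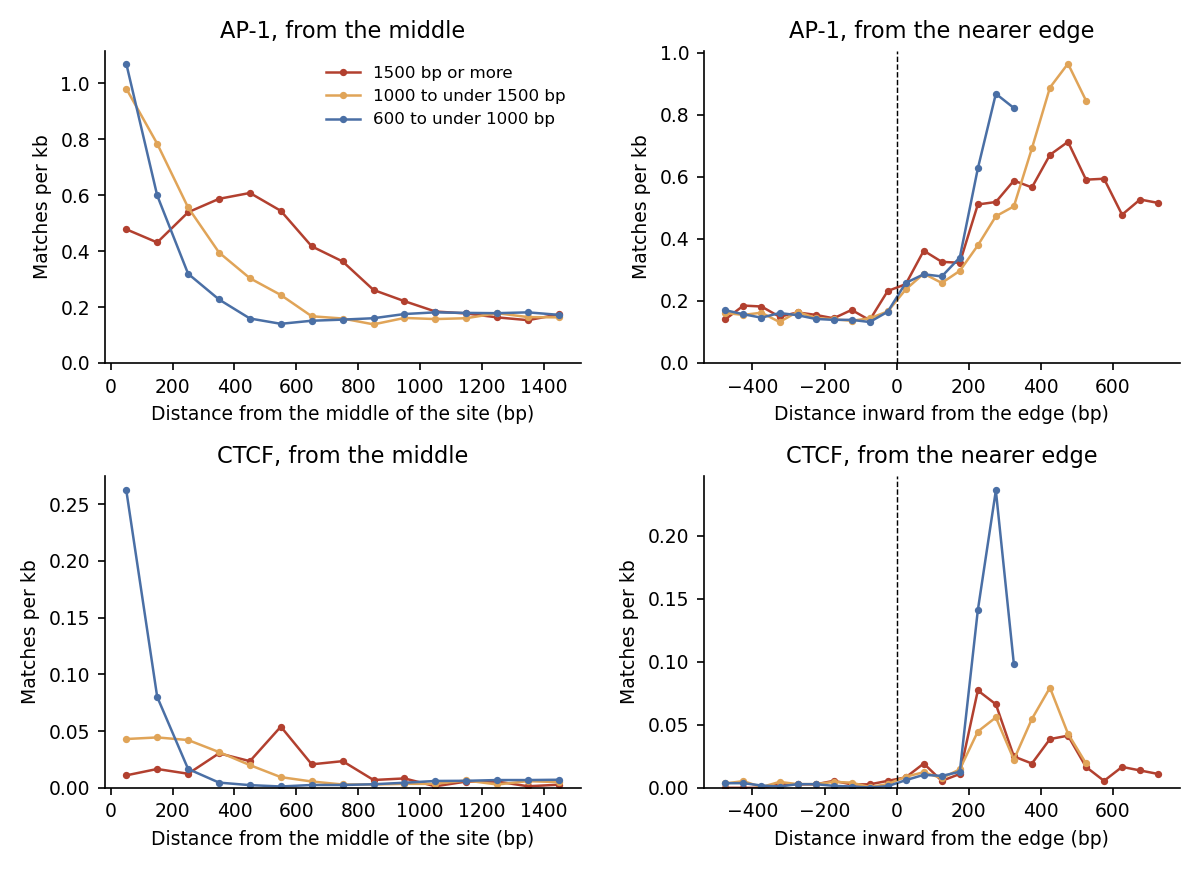
Matches per kb for AP-1 (top) and CTCF (bottom) by distance from the middle of the site in bins of 100 bp (left) and inward from the nearer edge in bins of 50 bp (right, dashed line at the edge), for distal sites of 3 width classes. In sites of 1500 bp or more the AP-1 density peaks at 0.608 per kb between 400 and 500 bp from the middle, and in sites of 600 to 999 bp at 1.07 per kb in the first 100 bp.

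Over their whole length, wide sites more often held an AP-1 match than narrower sites, whereas this did not hold for CTCF. At least 1 AP-1 match was found in 2080 members (57.4%), compared with 30.2% of narrower sites, and 21.5% of members held 2 or more. The longer sequence offers more positions, so the density is the fairer measure. It was 0.481 AP-1 matches per kb in wide and 0.593 in narrower sites, lower on 19 of 19 chromosomes (exact sign test, adjusted p = 2.67e-05). The AP-1 density fell over all width classes and not only at 1500 bp. It was 0.703 per kb under 300 bp, 0.565 at 600 to 999 bp, 0.551 at 1000 to 1499 bp and 0.424 at 2000 bp or more. CTCF density was 0.0232 per kb in wide and 0.0765 in narrower sites, likewise lower on 19 of 19. At 1000 to 1499 bp it was already 0.0325 per kb. A CTCF match lay anywhere in 137 members (3.78%) and in 4.61% of narrower sites, despite their shorter sequence. Among the narrower sites this share was 1.55% under 300 bp, 7.19% at 600 to 999 bp and 3.76% at 1000 to 1499 bp. The last value is close to that of wide sites. RUNX density was 0.334 and 0.379 per kb and lower on 16 of 19 chromosomes (adjusted p = 0.0207 in the exact sign test). Among narrower sites it was 0.483 per kb under 300 bp and 0.358 at 1000 to 1499 bp. TEAD density was 0.831 and 0.837 per kb and did not pass.

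The nearest AP-1 match lay a median of 344 bp from the middle of the members that had one, against 88.0 bp in narrower sites. In 71.5% of these members it lay more than 200 bp away. Only matches inside a site were counted, and members are wider by definition. The contrast with narrower sites therefore cannot separate the position of matches from width. In the 780 members with several matches, the outermost ones were a median of 649 bp apart (quartiles 276 and 957 bp). Members with both AP-1 and TEAD matches numbered 1597, and 199 members (5.50%) held no AP-1, TEAD, RUNX or CTCF match. There were 4 or more AP-1 matches in 36 members and 5 matches in 4 members, which included the Eps8l3 site and a site 16232 bp from the start of Klf6, a zinc finger gene induced early by growth signals.

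Across width classes the share of AP-1 in the middle did not change in 1 direction. It was 12.9% in sites under 300 bp, 19% at 600 to 999 bp, 17.3% at 1000 to 1499 bp, 9.07% (8.10 to 10.1) at 1500 to 1999 bp and 6.22% (4.52 to 8.49) at 2000 bp or more. The CTCF share was 5.01% at 600 to 999 bp and 0.789% at 1000 to 1499 bp, below the threshold of 1500 bp. TEAD varied less, between 15.1% and 18.7%.

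CpG islands were more often found at wide sites. An island lay within 1 kb of the middle of 157 wide sites (4.34%) and of 1.10% of narrower distal sites (difference 3.23 percentage points, 2.61 to 3.95). The share was higher on 17 of 19 chromosomes (exact sign test, adjusted p = 0.00510). This was the only 1 of 7 sequence and position measures that passed (14.3%). With width it went from 1.09% at 600 to 999 bp through 2.05% at 1000 to 1499 bp and 3.55% at 1500 to 1999 bp to 8.46% (6.46 to 11.0) at 2000 bp or more.

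Part of these members lay near starts of another annotation. A RefSeq transcript started within 1 kb of 235 members (6.49%) and of 2.95% of narrower distal sites, and 58 of the 157 members with an island were among them. Among sites without such a start, an island was found near 2.92% of wide and 0.959% of narrower sites (difference 1.97, 1.45 to 2.59). Members with an island had a median GC content of 57.6%, compared with 44.7% for the other members, and 21.0% against 59.1% of them held an AP-1 match. They lay closer to a protein-coding start (median 12543 bp against 41741.5 bp). Without the sites that had an island nearby, all motif calls remained except that of the CArG box, and GATA passed (difference 1.34, exact sign test, adjusted p = 0.0269).

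The GC content of the middle had a median of 45% in both wide and narrower sites. On average 16% of the middle was soft-masked as repeats in wide sites and 15.6% in narrower sites, which did not pass (exact sign test, adjusted p = 0.503). The difference passed against narrower sites of at least 600 bp (2.43 percentage points, exact sign test, adjusted p = 2.67e-04) and when sites with a copy or mostly soft-masked were left out (3.59). The latter setting removed sites by soft-masking itself, and the middle makes up more of a narrower site. No conclusion is drawn from that setting for this measure. Wide sites lay in introns in 49.1% of cases (narrower 49.6%), in exons in 3.76% (3.93%) and outside genes in 47.1% (46.4%), and none of these passed the test (adjusted p between 0.503 and 1.00 in the exact sign test). Among sites in introns of protein-coding genes, 39.8% of wide and 37.8% of narrower sites were in a first intron (adjusted p = 0.503 in the exact sign test). The exon share passed with wide sites taken from 1200 bp upward (difference -0.450, exact sign test, adjusted p = 0.00255). The 579 sites of 2000 bp or more lay in introns less often than the others, at 41.6% (difference -8.04, -12.0 to -3.97; adjusted p = 0.0310 in the exact sign test), and outside genes more often, at 54.1% (difference 7.65, 3.56 to 11.7; adjusted p = 0.0448 in the exact sign test).

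**Figure D4:**
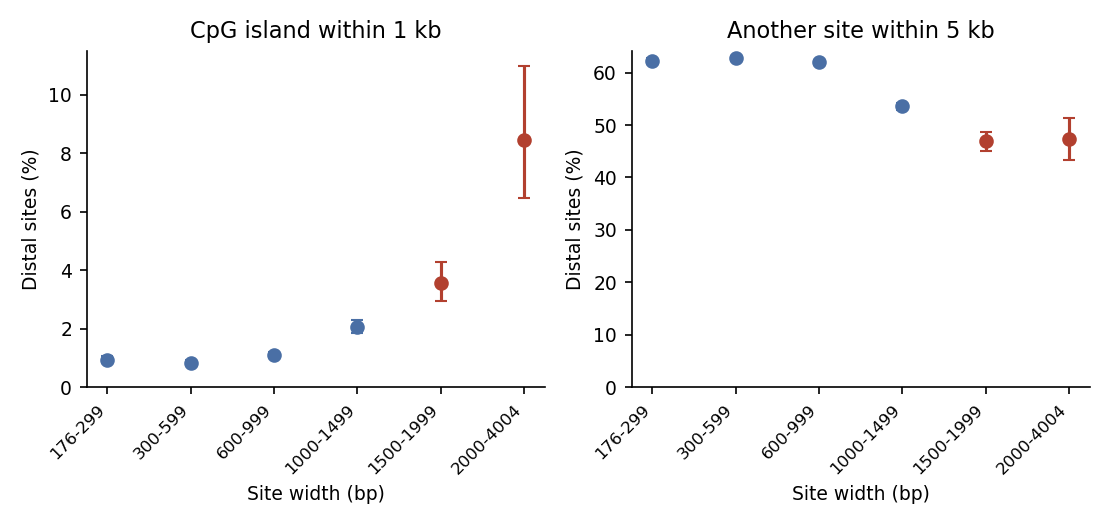
Share of distal sites (percent) with a CpG island within 1 kb of the middle (left) and with another site within 5 kb (right), by site width in bp, with 95% Wilson intervals for wide (red) and narrower (blue) classes. The island share reaches 8.46% at 2000 bp or more. The share with a close neighbour is 62.0% at 600 to 999 bp, 53.6% at 1000 to 1499 bp and 46.9% at 1500 to 1999 bp.

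Wide sites had fewer neighbours in close range and slightly more in a wider range. Another site lay within 5 kb of 47.0% of wide sites and of 61.1% of narrower sites (difference -14.1, -15.8 to -12.5), a lower share on 19 of 19 chromosomes (exact sign test, adjusted p = 1.14e-05). The share was already lower at 1000 to 1499 bp (53.6%) than at 600 to 999 bp (62.0%). Within 20 kb of either edge, wide sites had on average 3.92 other sites and narrower sites 3.74 (difference over chromosomes 0.216 ± 0.189, SD, n = 19; higher on 15 of 19; exact sign test, adjusted p = 0.0288). These were 2 of 3 neighbour measures, 1 lower and 1 higher (33.3% each). The nearest distal site was itself wide for 2.73% of wide and 2.47% of narrower sites, which did not pass (adjusted p = 0.648 in the exact sign test). The gap to the nearest distal site had a median of 5734 bp for wide and 4261 bp for narrower sites. At 1000 to 1499 bp this median was 5072 bp. How sites close to each other were joined was not stated for this list, and its part in these values was not tested.

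Each site was assigned to the nearest start of a protein-coding gene. The median distance was 39797 bp for wide sites (quartiles 15093 and 103586 bp) and 38964.5 bp for narrower sites, and 927 members lay more than 100 kb away. The definition used distance to starts, so these values carry no test. The farthest member (chr17:61203808-61205449) lay 1676515 bp from the start of Efna5, which encodes an ephrin ligand. The nearest gene need not be the gene that a site acts on.

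Wide sites were assigned to 2632 of 20722 protein-coding autosomal genes (12.7%). A single member was assigned to 1948 genes, 2 members to 476, 3 members to 139 and 4 or more to 69. Genes with a member had a median of 14 distal sites of any width, compared with 2.00 over all genes. A gene with a member has a distal site by definition, whereas 71.9% of all genes had one. Genes with more distal sites also have more that can be wide, so the direction of this contrast was set in advance.

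The highest number was 7, reached by Foxp1, Smad7 and 2010111I01Rik. Foxp1, a forkhead transcription factor gene, had 7 wide among 89 distal sites, 6 of them in its introns, at 3024 to 258054 bp from the nearest coding start of the gene. Smad7, which encodes an inhibitor of TGF-beta signalling, had 7 of 42 distal sites wide (16.7%), at 21759 to 132585 bp, and 2 of them lay in introns of the neighbouring gene Ctif. The 7 members of 2010111I01Rik, among 44 distal sites, all lay in this gene, 5 in introns and 2 over annotated exons. Of these 2, 1 also fell in Gm47603 and 1 in Fancc, and the exon can belong to either gene at each site.

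A further 4 genes had 6 members each, namely Angpt1, Robo1, Adamts5 and Pde4d. Angpt1, a ligand of the endothelial receptor Tie2, had 3 in its introns and 3 outside genes, at 69105 to 366683 bp. Robo1, a receptor for Slit proteins, had members up to 433919 bp away. The members of Adamts5, which encodes an aggrecan-cleaving protease, lay at 97832 to 499538 bp from its start and were poor in GC (the lowest at 32.0%), and 4 of them held 2 AP-1 matches. All members of Pde4d, a cyclic AMP phosphodiesterase gene with many starts, were in its introns.

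Another 11 genes had 5 members each, of which the 5 with the largest summed width are described here. Klf6 had 5 of 74 distal sites wide, including the site with 5 AP-1 matches and one of 2364 bp with 3 AP-1 and 4 TEAD matches at 331370 bp. Nrp2, a co-receptor for semaphorins, had 5 of 66, of which 3 lay in introns of Pard3b. Zmiz1, a transcriptional co-regulator gene, had 5 of 61, and Mbd2, which encodes a reader of methylated CpG, 5 of 56. The 5 members assigned to 4930558K02Rik, 26.3% of its 19 distal sites, all lay in introns of the dynamin gene Dnm3, whose own coding starts were farther away.

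Next, 12 gene lists were examined, as counts beside those over all genes. In 11 of the 12 lists the share of genes with a member was above the 12.7% of all protein-coding genes, and no test was made of differences between lists. At least 1 wide site was assigned to 23 of 35 mesenchymal transcription factor genes (65.7%), 16 of 29 extracellular matrix genes (55.2%) and 15 of 29 cytoskeleton and contraction genes (51.7%). The adhesion, TGF-beta and Hippo lists each had 14 of 30 (46.7%), the growth factor list 10 of 30 and the list of AP-1 and immediate early factors 9 of 30. In the lists of other tissues or of general function it was 6 of 28 liver genes (21.4%), 5 of 29 neuronal genes (17.2%), 4 of 30 ribosomal protein genes (13.3%) and 3 of 29 blood cell genes (10.3%). Across the 12 lists the median number of distal sites per gene ranged from 1.00 for blood cell genes to 25 for mesenchymal transcription factors.

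The lists were also described relative to their number of distal sites. The wide share of the assigned distal sites was highest for cytoskeleton and contraction genes, with 25 of 434 (5.76%, 3.93 to 8.37), against 2.91% of all distal sites. It was 5.05% (3.60 to 7.04) for TGF-beta and BMP signalling, 5.02% (3.4 to 7.36) for the Hippo pathway and TEAD targets and 3.98% (3.01 to 5.23) for mesenchymal transcription factors. Without the gene with the most members in each list, the share was 5.37% (3.57 to 7.99) for the cytoskeleton list and 4.61% (3.0 to 7.01) for the Hippo list. It was 4.22% (2.88 to 6.16) for the TGF-beta list and 3.85% (2.88 to 5.12) for the mesenchymal list. The lower ends for the TGF-beta and mesenchymal lists lay below 2.91%, and that of the Hippo list lay within the interval of all distal sites (2.82 to 3.01). The shares of the other 8 lists ranged from 1.86% for neuronal genes to 4.84% for ribosomal protein genes, each with an interval that held 2.91%. The share of the ribosomal list was 2.78% without Rpl14, to which 3 of its 6 members were assigned, and those of the other 7 lists moved by less without their leading gene. Sites of one gene share a neighbourhood, so the intervals are too narrow as a measure of differences between genes, and no test was made. Whether an interval holds 2.91% is therefore not read as a difference of a list.

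**Figure D5:**
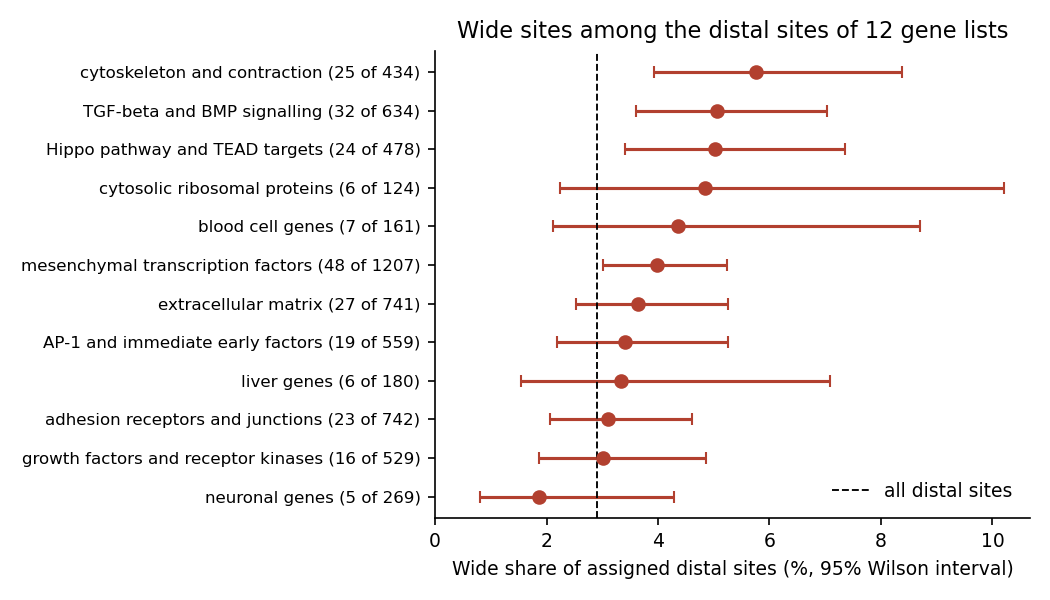
Share of the distal sites assigned to the genes of each list that were wide (percent, points with 95% Wilson intervals, counts of wide and all assigned distal sites beside the names), with a dashed line at the 2.91% of all distal sites. The points run from 1.86% for neuronal genes to 5.76% for cytoskeleton and contraction genes.

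Among the matrix genes, the fibrillar collagen gene Col5a2 had 4 wide sites, all outside genes at 38278 to 123767 bp, the farthest of them 2571 bp wide with 3 AP-1 matches. The type I collagen genes Col1a2 and Col1a1 had 3 of 23 and 2 of 15 distal sites wide, and the widest of the Col1a1 sites had 2634 bp and 4 TEAD matches. Lox, whose enzyme cross-links collagen, had 3 of 10. Of the contractile genes, Myh9 (non-muscle myosin heavy chain), Tpm1 (tropomyosin), Pdlim5 and Lpp had 3 each. Gja1, the gene of a gap junction connexin, had 4 of 35 distal sites wide.

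In the signalling lists, Inhba (the activin subunit) had 4 of 87 and Smad6, like Smad7 an inhibitory Smad gene, 3 of 22, of which one was 2721 bp wide. Dlc1 had 4 of 44, and 2 of its sites held 6 and 5 TEAD matches. Gadd45b, Tead1 and the matricellular gene Ccn1 had 2 each. The mesenchymal factors Tcf4 and Runx2 had 4 each, and 1 of the Runx2 sites lay in an intron of Supt3. Myc, with 153 distal sites, had 4 wide ones at 105000 to 496675 bp, 1 of them in Pvt1. Among receptor ligands Pdgfc had 4 of 43, and the receptor kinase genes Egfr, Fgfr2 and Met had 2 each. In the lists of other tissues, the blood cell genes Ptprc and Ebf1 had 3 members each, at least 152023 bp from their starts, and Rag1 had 1 of 1.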

How the data were processed

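ATAC-seq libraries of 10 samples in 5 groups were processed by the authors. Per their methods and processing notes, reads were trimmed, aligned to mm10 with BWA, filtered, merged over replicates with Picard, and narrow peaks were called with MACS2. The deposited table used here is a list of positions of all sites over all samples, with the chromosome, start and end as its only values (no counts, signal or score). Peak thresholds, the Tn5 shift, removal of blacklisted regions and the joining of sites over samples were not given in the sources used here, and each can change the width of a site. Width can also depend on depth, which is unknown.

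Positions were read as counted from 0 and are printed counted from 1. Sites of chromosomes 1 to 19 were called distal when they did not overlap 1 kb either side of any GENCODE vM21 transcript start (134417 starts), and wide at 1500 bp or more. Sequence came from the RefSeq GRCm38.p6 genome. Motifs were matched by exact letters on both strands in the middle 200 bp. The AP-1 and CRE patterns cannot match at the same position, while the GATA, TEAD, FOX, RUNX and E-box patterns may overlap others. CpG islands were computed outside soft-masked repeats (at least 200 bp, GC content over 0.5, observed to expected CpG over 0.6). Tests were exact two-sided sign tests over the 19 chromosomes of the difference between wide and narrower sites, with Benjamini-Hochberg adjustment within each of 3 families (14, 7 and 3 measures). A call needed an adjusted p under 0.05 and, for shares, a 95% Newcombe interval without 0. The interval condition was added after the data were seen, since the sign test is skewed for motifs expected in under 1 wide site per chromosome. Intervals cover counting error only. Chromosomes are parts of the same pooled libraries and not replicates of the experiment.

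Named items were the 10 widest members, the farthest one, those beside the threshold, a member with the most AP-1 matches, the 12 genes with most members and up to 4 genes per list, of which 1 is not reported here. Single members of these genes, other single sites and classes of width were picked for mention after their values were seen. Members and lists were chosen with earlier results of these data known. Listed genes on chromosome X were left out. Near-identical copies were searched with minimap2 2.31-r1302 (80% of the length, 95% identity): 11 members had one, and 40 members were over 50% soft-masked. The scan and the test were tested on simulated data. Scripts ran under Python 3.11.15 with SciPy 1.17.1, NumPy 2.4.6 and Numba 0.67.0, and plots were drawn with Matplotlib 3.10.9.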

Additional observations from a re-analysis of the deposited data

Results flagged for a closer look

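On chromosome X, which the comparisons did not use, 63 of 2897 distal sites were at least 1500 bp wide (2.17%, 95% Wilson interval 1.70 to 2.77). They are given because they lie outside the sites compared, with no test. The share on the X chromosome lay between those of chromosome 19 (2.06%) and chromosome 12 (2.53%).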

How the results depend on the processing

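No paired analysis was possible because only positions pooled over all libraries were used, and for the same reason no replicate could be left out. At a width of 2000 bp or more there were 579 members and 544 genes, and at 1200 bp or more 10645 members and 5378 genes. The motifs that passed numbered 3 at 2000 bp, 3 in the middle 500 bp, 3 by matches per kb and 0 in the flanking 200 bp, where AP-1 had a difference of 0.229 and the CArG box of 0.0912 percentage points. By matches per kb the CArG difference was 0.00280. The middle 500 bp reaches outside sites narrower than 500 bp, which wide sites never are. The sequence and position measures that passed numbered 3 at 2000 bp, 2 at 1200 bp, 2 against narrower sites of 600 bp or more, 0 of 6 without sites near a CpG island (exact sign test, none at an unadjusted p under 0.05) and 2 without copies or mostly soft-masked sites. The cause of these changes was not tested. Matches per kb and the removal of copies were chosen after seeing the data. Leaving out mostly soft-masked sites also selects on what the soft-masked measure reads, so that call cannot be interpreted. AP-1 kept its call in 11 of 12 alternatives, CTCF and RUNX in 11 of 12, and TEAD in 7 of 12. At 1200 bp or more the AP-1 difference was -4.08, the RUNX difference -1.52 and the TEAD difference -0.920 percentage points. The CpG island share kept its call in all 7 alternatives run (2.09 to 7.30), and the neighbour measures theirs in 9 of 9. RefSeq starts in place of GENCODE starts gave 3754 members.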
